A study of Schmidtea mediterranea with 32 samples.

Results

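The sequences described here are the BK0070 entries of the reference set against which planarian RNA was counted, a consecutive block of 37 short sequences whose identifiers run from BK007007 to BK007043. They are understood to be peptide prohormone sequences of the planarian *Schmidtea mediterranea*, but neither the count table nor the sample labels annotate them, so each is called by its identifier and none is given a gene name or a role. An entry was kept when it had at least 10 counts in 3 or more of the 31 libraries compared. This left 35 entries out of 177783 named sequences, and 33 of the 35 passed the filter on low counts used for testing. The 35 entries were 217 to 2434 bases long, with a median of 322 bases, and 33 of them were under 600 bases.

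Peptide prohormones are the precursors of neuropeptides and peptide hormones. They carry a signal peptide, enter the secretory pathway and are cut at basic residues by prohormone convertases into short active peptides. In planarians such precursors are made in many classes of neuron and also outside the nervous system, and peptide signalling is known to act on the development of the reproductive organs. The gene *nhr-1* codes for a nuclear hormone receptor, a ligand-regulated transcription factor, and is known in this species for its requirement in the formation and upkeep of the reproductive system.

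Sexual planarians (biotype Sexual S2F2) were given RNAi feedings, and poly(A) RNA of whole animals was sequenced. The groups were *nhr-1* RNAi after 4, 6, 8 and 11 feedings, with 4 libraries each, and control RNAi, labelled UNC, after the same numbers of feedings, with 4 libraries each except 3 at 6 feedings. All animals of both arms were of this biotype and received RNAi feedings. The labels do not say what the control RNA targets, how many animals entered a library or whether libraries came from separate animals, so the p-values below measure the spread between these libraries. The level of the *nhr-1* transcript itself was not analysed here, because no identifier in the table is paired with that name.

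Total counts ranged from 11179167 to 19712337 in the 16 *nhr-1* RNAi libraries, and from 11683666 to 19040989 in the 15 control libraries. The BK0070 entries together held 2485 to 5437 counts per library, so single entries often rest on few counts. Levels are given as CPM (counts-per-million) of a library size scaled by the trimmed mean of M values (TMM), which corrects for a few sequences taking a large part of a library. The entries took between 0.0182% and 0.0325% of a library's total counts.

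In 3 libraries a single contig took a large share of the counts on SmedSXL contigs, the most numerous class of reference sequence. These were the *nhr-1* RNAi library s2 at 4 feedings (36.9%) and the control libraries s2 (45.6%) and s3 (47.5%) at 11 feedings, where the share in any other library was at most 25.9%. Nearly all BK0070 entries stood high in them after TMM scaling. In *nhr-1* RNAi library s2 at 4 feedings, 34 of 35 entries lay above the mean of the other libraries of the group, with a median ratio of 3.62. In control libraries s2 and s3 at 11 feedings this held for 33 and 34 of 35 entries, with median ratios of 5.53 and 6.29. The ratios carry TMM factors of 0.365 and 0.353 in s2 and s3, against 1.355 and 1.034 in control libraries 1 and s1. As CPM of total counts, with no TMM factor, the 35 entries summed to 279 and 256 in s2 and s3. Control libraries 1 and s1 had 222 and 214. The sums include BK007043, which was lower in s2 and s3. In *nhr-1* RNAi library s2 at 4 feedings the sum was 298, against 208, 245 and 251 in the others. The part that the dominating contig has in the results that rest on these libraries was not tested.

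The entries were unequally abundant. Per kilobase of sequence, the median level over the 15 control libraries ranged from 0.583 to 45.0 CPM per kb among the 35 entries, a 77.2-fold range, with a median entry at 10.8 CPM per kb against 3.09 CPM per kb for all tested sequences. BK007038 was highest at a control median of 45.0 CPM per kb, followed by BK007042 at 35.1, BK007023 at 34.2, BK007035 at 33.9 and BK007027 at 27.6 CPM per kb. Each of the 34 pairs of neighbours in this order overlapped in their control ranges, which include control libraries s2 and s3 at 11 feedings. Entries were not compared library by library, so the overlap does not show whether adjacent ranks differ. For 7 entries the highest control library lay below the lowest control library of BK007038. By raw counts, BK007043, the longest entry, was the most abundant with 17629 counts, or 16.6% of all counts on these entries. Most entries kept a similar place in *nhr-1* RNAi libraries. The largest shift was that of BK007034, at rank 32 by its *nhr-1* RNAi median and at rank 13 by its control median. BK007012 was at rank 25 by its *nhr-1* RNAi median and at rank 16 by its control median, and BK007039 at ranks 16 and 23.

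**Figure D1:**
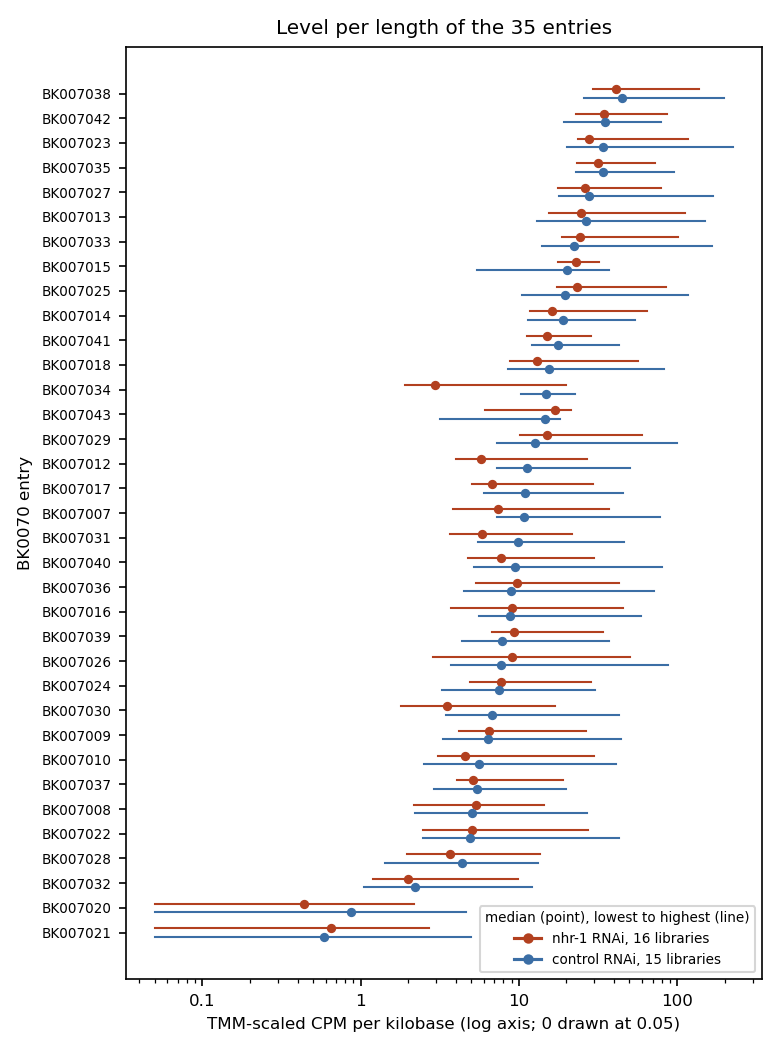
Level of each of the 35 BK0070 entries in CPM per kilobase (log axis, 0 drawn at 0.05), with the median as a point and the lowest to highest library as a line, for 16 *nhr-1* RNAi and 15 control RNAi libraries, in the order of the control median. The medians spread over a 77.2-fold range in control libraries, and the *nhr-1* RNAi median of BK007034 (rank 13 by control median) lies far to the left of its control median.

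Knock-down of *nhr-1* was compared with control RNAi at each number of feedings with the edgeR quasi-likelihood test fitted to all 45762 tested sequences, and a sequence was called at a Benjamini-Hochberg adjusted p under 0.05. After 4 feedings none of the 33 tested entries was called by edgeR and none had an unadjusted p under 0.05 (3.85% of all sequences had one), beside 0.299% of all sequences called lower and 0.00219% called higher. DESeq2 also called 0, and limma voom with sample weights called 1, BK007012. The shares of all sequences called in those fits are not given here. After 6 feedings 1 of 33 entries was called, lower, beside 9.54% of all sequences called lower and 0.59% higher. After 8 feedings 1 of 33 was called, again lower, beside 11.3% called lower and 0.964% higher. Both calls were BK007034. After 11 feedings 20 of 33 entries (60.6%) were called, all lower, beside 21.8% of all sequences called lower and 7.1% higher.

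The median log2 fold change of the 33 entries, *nhr-1* RNAi over control, was -0.06 at 4 feedings, 0.17 at 6, 0.17 at 8 and -1.71 at 11. The same median over all tested sequences was -0.00, 0.18, 0.15 and 0.14. With all libraries, the entries as a set lay close to the whole table at 4, 6 and 8 feedings and below it at 11 feedings. Without the 3 libraries with a dominating contig this turned round at both ends. The median of the entries was then -0.67 at 4 feedings and 0.02 at 11 feedings, beside -0.01 and 0.01 for all sequences. Below 0 were 19, 10, 11 and 31 of 33 entries at 4, 6, 8 and 11 feedings. The median standard error of a single entry was 0.502 to 0.538 on the log2 scale at each number of feedings.

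When the effects at 4, 6, 8 and 11 feedings were averaged, 6 of 33 entries (18.2%) were called lower and none higher, beside 18.2% of all sequences called lower and 11.5% higher. The share called lower was thus that of the table as a whole. Without *nhr-1* RNAi library s2 at 4 feedings 14 entries were called lower, a count given here without the share of all sequences in that fit. The 6 entries were BK007034, BK007012, BK007030, BK007007, BK007017 and BK007031. Each of the 6 had a log2 fold change below 0 at every number of feedings, in the range -0.71 to -0.06 at 4, -1.83 to -0.26 at 6, -2.44 to -0.58 at 8 and -2.84 to -1.98 at 11 feedings. The 6 were picked by the average of these same values, so their shared sign is not separate evidence.

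**Figure D2:**
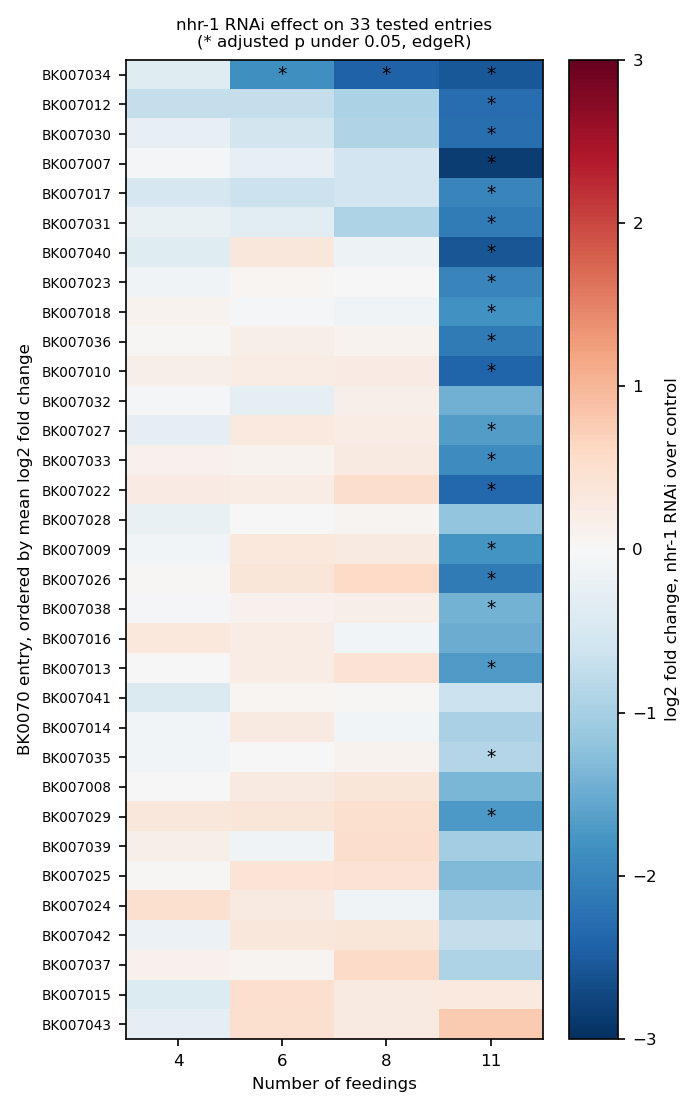
Colour map of the log2 fold change, *nhr-1* RNAi over control RNAi, of the 33 tested BK0070 entries (down the page, ordered by their average effect) at 4, 6, 8 and 11 feedings, with a star where edgeR's adjusted p was under 0.05. Stars at 6 and 8 feedings stand at BK007034 alone (-1.83 and -2.44), while at 11 feedings 20 entries have one and 31 of 33 are below 0.

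BK007034, 627 bases long and the longest entry but one, was lower in *nhr-1* RNAi animals after 6, 8 and 11 feedings. After 4 feedings its level was 4.06, 8.03, 12.4 and 9.90 CPM in *nhr-1* RNAi libraries, against 11.5, 6.64, 11.0 and 14.2 CPM in control libraries, and the groups overlapped. After 6 feedings it was 1.91, 2.27, 2.17 and 5.37 CPM in *nhr-1* RNAi libraries, against 9.90, 12.6 and 8.66 CPM in control libraries. All *nhr-1* RNAi values at 6 feedings lay below all control values, with library s3 the highest among them.

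After 8 feedings BK007034 stood at 1.32, 1.19, 1.53 and 1.45 CPM in *nhr-1* RNAi libraries, against 9.35, 7.51, 6.47 and 6.53 CPM in control libraries. After 11 feedings it stood at 1.81, 1.49, 1.70 and 1.77 CPM in *nhr-1* RNAi libraries, against 6.70, 6.84, 14.1 and 12.9 CPM in control libraries. The *nhr-1* RNAi libraries were close together at both times, and no value of one arm reached the range of the other. The 2 higher control values at 11 feedings were those of libraries s2 and s3.

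The log2 fold change of BK007034 was -0.35 at 4 feedings (SE 0.316, edgeR adjusted p = 1), -1.83 at 6 (SE 0.346, adjusted p = 0.000477), -2.44 at 8 (SE 0.344, adjusted p = 8.76e-06) and -2.55 at 11 (SE 0.346, adjusted p = 2.65e-06). Its control level was thus 3.56, 5.41 and 5.86 times its *nhr-1* RNAi level at 6, 8 and 11 feedings. The average over the feedings was -1.79 (SE 0.169, edgeR adjusted p = 1.46e-09). Without the 3 libraries with a dominating contig, the value at 11 feedings was -2.09 (edgeR adjusted p = 0.000119). In these bulk samples, fewer cells making a transcript and less transcript per cell cannot be told apart.

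BK007034 was also the single tested entry whose RNAi effect differed between feedings by an edgeR F test of the difference itself (adjusted p = 0.00857), beside 4.12% of all sequences. Without control library 1 at 11 feedings 11 entries passed this test, without control library s1 at 11 feedings 4, and without *nhr-1* RNAi library 1 at 4 feedings 2. What share of all sequences passed in those fits is not given here. Within the *nhr-1* RNAi arm BK007034 was the single entry that changed over the feedings (edgeR adjusted p = 2.82e-06), beside 8.29% of all sequences. Within the control arm its level did not pass the test over feedings (edgeR adjusted p = 0.612).

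BK007012, of 347 bases, had the next most negative average effect. Its level after 4 feedings was 1.39, 1.86, 9.41 and 1.97 CPM in *nhr-1* RNAi libraries, against 3.90, 7.49, 3.90 and 7.09 CPM in control libraries. Library s2 alone put the *nhr-1* RNAi group into overlap with the controls there, since the other 3 libraries were below every control. After 6 feedings BK007012 was at 2.05, 2.44, 1.42 and 2.72 CPM in *nhr-1* RNAi libraries, against 3.59, 4.44 and 2.63 CPM in control libraries. After 8 feedings BK007012 was at 2.05, 1.55, 1.47 and 1.51 CPM in *nhr-1* RNAi libraries, against 2.54, 3.76, 3.06 and 3.36 CPM in control libraries, and the groups no longer overlapped.

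After 11 feedings BK007012 was at 2.02, 2.32, 2.51 and 1.57 CPM in *nhr-1* RNAi libraries, against 3.42, 4.56, 17.5 and 17.1 CPM in control libraries. The groups were again apart, and the 2 very high control values came from libraries s2 and s3. The log2 fold change was -0.71 at 4, -0.72 at 6 and -0.95 at 8 feedings, none past the threshold. It was -2.30 at 11 feedings (edgeR adjusted p = 0.00101) and -1.17 on average (SE 0.249, edgeR adjusted p = 0.000515). At 11 feedings without the 3 libraries with a dominating contig, BK007012 was at -1.01 (edgeR adjusted p = 0.0167), and it and BK007034 were the 2 entries still called. The share of all sequences called in that fit is not given here.

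BK007030, of 299 bases, was among the less abundant of the 6. It had 1.62, 1.19, 5.04 and 2.12 CPM in *nhr-1* RNAi libraries after 4 feedings, against 2.02, 2.46, 2.07 and 4.73 CPM in control libraries. After 6 feedings BK007030 had 1.09, 1.11, 0.991 and 1.52 CPM in *nhr-1* RNAi libraries, against 1.54, 2.48 and 1.20 CPM in control libraries. Both times the groups overlapped. After 8 feedings BK007030 had 0.542, 0.774, 0.964 and 0.880 CPM in *nhr-1* RNAi libraries, against 1.36, 1.45, 1.04 and 2.09 CPM in control libraries. After 11 feedings it had 1.01, 0.972, 1.09 and 1.01 CPM in *nhr-1* RNAi libraries, against 1.41, 1.37, 5.197 and 12.9 CPM in control libraries. The groups were apart at 8 and at 11 feedings. Its average log2 fold change came to -0.996 (SE 0.267, edgeR adjusted p = 0.00513). At 11 feedings it was -2.27 (edgeR adjusted p = 0.00221), and -0.54 without the 3 libraries with a dominating contig (adjusted p = 0.535). Leaving out control library s3 alone gave -1.23 (adjusted p = 0.0691).

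BK007007, of 351 bases, had 1.66, 3.38, 13.1 and 3.33 CPM in *nhr-1* RNAi libraries after 4 feedings, against 3.49, 6.53, 3.17 and 8.23 CPM in control libraries. After 6 feedings BK007007 had 3.21, 3.33, 2.48 and 3.52 CPM in *nhr-1* RNAi libraries, against 2.57, 6.00 and 2.73 CPM in control libraries. By 8 feedings it had 1.99, 2.92, 2.21 and 2.33 CPM in *nhr-1* RNAi libraries, against 2.91, 4.24, 3.18 and 3.80 CPM in control libraries. The groups overlapped at each of these times, at 8 feedings by a single pair of libraries. After 11 feedings BK007007 had 1.34, 2.69, 2.31 and 1.72 CPM in *nhr-1* RNAi libraries, against 3.07, 4.49, 24.5 and 27.3 CPM in control libraries, without overlap. Its average log2 fold change came to -0.94 (SE 0.283, edgeR adjusted p = 0.0131). The value at 11 feedings was -2.84 (edgeR adjusted p = 0.000541), and -0.99 without the 3 libraries with a dominating contig (adjusted p = 0.0914).

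BK007017, of 229 bases, had 1.57, 1.73, 6.72 and 1.97 CPM in *nhr-1* RNAi libraries after 4 feedings, against 2.49, 5.14, 2.50 and 6.01 CPM in control libraries. After 6 feedings BK007017 had 1.30, 1.88, 1.67 and 2.88 CPM in *nhr-1* RNAi libraries, against 2.21, 4.76 and 2.15 CPM in control libraries. By 8 feedings it had 1.505, 1.55, 1.64 and 1.45 CPM in *nhr-1* RNAi libraries, against 1.55, 3.38, 1.39 and 2.85 CPM in control libraries. The groups overlapped at 4, 6 and 8 feedings, and the control libraries fell into a lower and a higher pair at 4 and 8. After 11 feedings BK007017 had 1.34, 1.49, 1.22 and 1.17 CPM in *nhr-1* RNAi libraries, against 2.11, 2.34, 10.4 and 6.83 CPM in control libraries, without overlap. Its average log2 fold change came to -0.93 (SE 0.246, edgeR adjusted p = 0.00463). At 11 feedings it was -1.98 (edgeR adjusted p = 0.00412), and -0.86 without the 3 libraries with a dominating contig (adjusted p = 0.204).

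BK007031, of 317 bases, had 1.66, 2.79, 6.89 and 3.70 CPM in *nhr-1* RNAi libraries after 4 feedings, against 4.10, 4.82, 2.86 and 5.15 CPM in control libraries. After 6 feedings BK007031 had 1.91, 1.16, 2.35 and 3.36 CPM in *nhr-1* RNAi libraries, against 2.31, 3.72 and 2.30 CPM in control libraries. At both times the groups overlapped. After 8 feedings it had 1.81, 1.55, 1.25 and 1.76 CPM in *nhr-1* RNAi libraries, against 3.097, 3.92, 2.31 and 2.85 CPM in control libraries, without overlap. After 11 feedings it had 1.28, 2.02, 2.24 and 1.32 CPM in *nhr-1* RNAi libraries, against 1.76, 3.13, 11.2 and 14.6 CPM in control libraries, where the lowest control library lay among the *nhr-1* RNAi values. Its average log2 fold change came to -0.90 (SE 0.239, edgeR adjusted p = 0.00480). At 11 feedings it was -2.11 (edgeR adjusted p = 0.00175), and -0.59 without the 3 libraries with a dominating contig (adjusted p = 0.470).

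**Figure D3:**
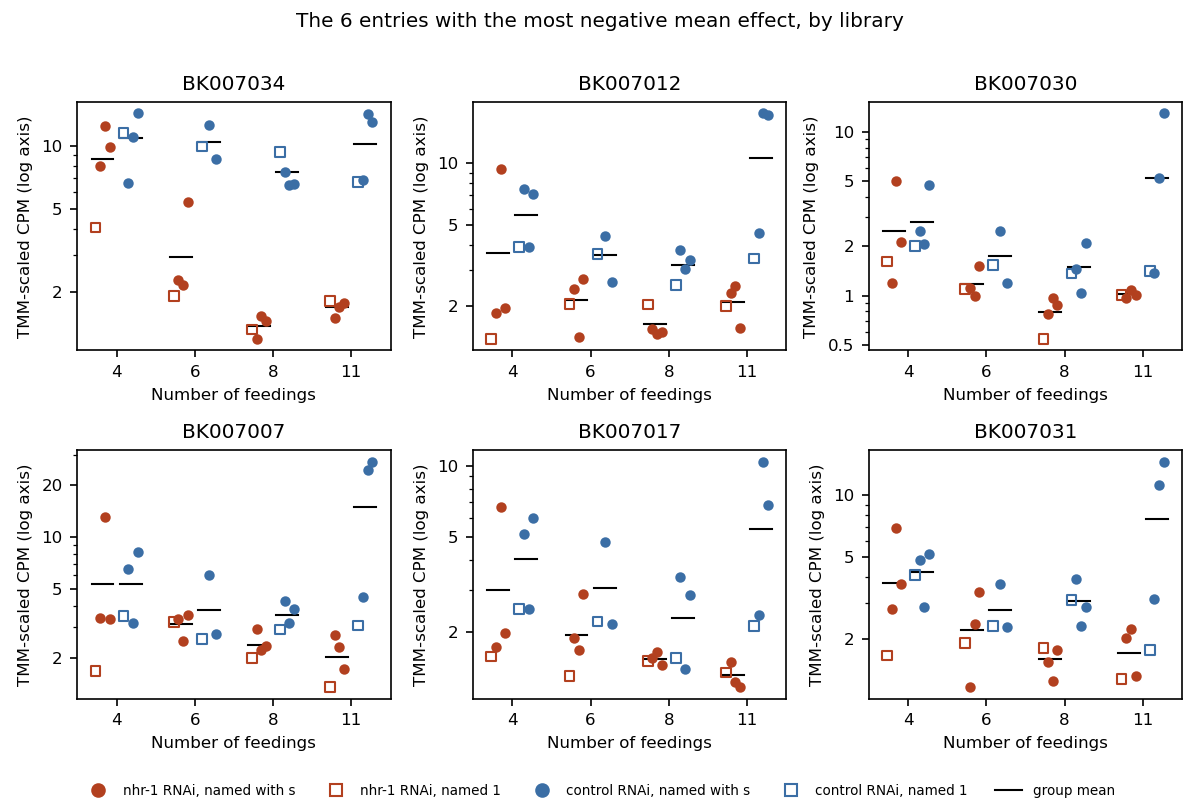
CPM in every library (log axes) of the 6 BK0070 entries called lower on the average effect, by number of feedings, with *nhr-1* RNAi left of control RNAi, open squares for libraries named 1 and a line at each group mean. BK007034 separates the arms at 6, 8 and 11 feedings, where its *nhr-1* RNAi values are 1.19 to 5.37 CPM, and the highest points at 11 feedings are control libraries s2 and s3.

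A measure that does not depend on the library size is the count of an entry per 1000 counts on the other BK0070 entries of the same library. BK007034 had 32.3 ± 9.97 per 1000 in *nhr-1* RNAi and 38.6 ± 15.4 in control libraries after 4 feedings (SD, n = 4 each). After 6 feedings it had 12.3 ± 3.80 in *nhr-1* RNAi (n = 4) and 52.8 ± 4.01 in control libraries (n = 3). After 8 feedings the values were 7.37 ± 0.81 in *nhr-1* RNAi and 45.5 ± 9.70 in control libraries, and after 11 feedings 8.71 ± 1.62 in *nhr-1* RNAi and 28.2 ± 11.8 in control libraries (SD, n = 4 each). The arms did not overlap at 6, 8 or 11 feedings: at 11 feedings the highest *nhr-1* RNAi library was at 10.3 and the lowest control library at 18.1 per 1000.

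BK007012 per 1000 counts on the other entries averaged 10.6 ± 4.34 in *nhr-1* RNAi and 17.8 ± 1.31 in control libraries after 4 feedings, and 10.6 ± 1.43 in *nhr-1* RNAi and 22.7 ± 1.28 in control libraries after 11 feedings (SD, n = 4 each). In this measure the 4 control libraries at 11 feedings lay close together, between 21.1 and 24.0 per 1000, although 2 of them were far higher in CPM. The other 4 of the 6 entries also had lower means in *nhr-1* RNAi libraries at every number of feedings, in the same counts by which they were picked. At 8 feedings BK007031 had 8.52 ± 1.13 in *nhr-1* RNAi and 17.7 ± 1.36 in control libraries, and BK007007 had 12.8 ± 2.58 in *nhr-1* RNAi and 20.8 ± 2.37 in control libraries (SD, n = 4 each). BK007038, the most abundant entry per kilobase, served as a contrast with 85.0 ± 2.59 per 1000 in *nhr-1* RNAi and 92.6 ± 16.98 in control libraries after 11 feedings (SD, n = 4 each), which overlapped.

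**Figure D4:**
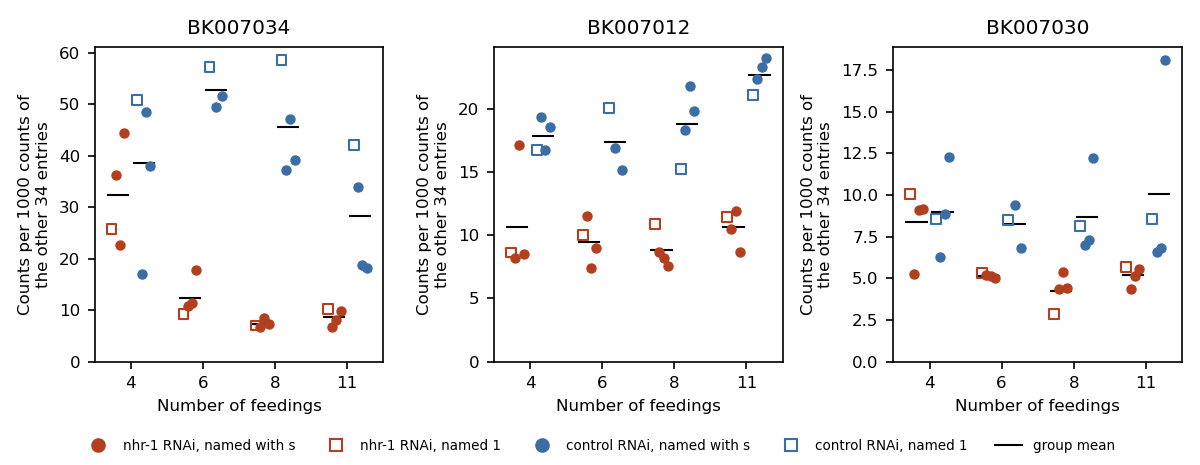
Counts of BK007034, BK007012 and BK007030 per 1000 counts on the other 34 BK0070 entries of the same library, by number of feedings, with *nhr-1* RNAi left of control RNAi, 1 point per library and a line at each group mean. BK007034 is at 7.37 ± 0.81 in *nhr-1* RNAi libraries at 8 feedings, against 45.5 ± 9.70 in control libraries (SD, n = 4 each), and the control points of BK007012 at 11 feedings lie between 21.1 and 24.0.

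Beyond the 6 entries above, 14 entries were called lower at 11 feedings and not on the average effect. Their log2 fold changes at 11 feedings were -2.56 to -0.88, whereas the same entries lay at -0.37 to 0.34 after 4, -0.06 to 0.36 after 6 and -0.16 to 0.59 after 8 feedings. These calls rest on control libraries s2 and s3. Without the 3 libraries with a dominating contig the 14 entries lay at -0.30 to 0.70 at 11 feedings, with no edgeR adjusted p under 0.589. Over all tested entries the 20 calls became 8 without control library s2, 8 without control library s3 and 32 (31 lower, 1 higher) without control library 1. With total counts as library sizes and no TMM factor there were 7 calls, and with the summed counts on the entries as library sizes, an alternative added after the data were seen, there were 6. These counts are given without the share of all sequences called in the same fits.

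The 3 entries with the highest mean control level per kilobase were BK007038, BK007023 and BK007027. That mean includes control libraries s2 and s3 at 11 feedings: without them, as by the control median, BK007027 was at rank 5 and BK007042 among the first 3. BK007038 had 14.4, 17.9, 16.3 and 13.98 CPM in *nhr-1* RNAi libraries after 11 feedings, against 12.03, 16.9, 80.4 and 58.1 CPM in control libraries. After 8 feedings BK007038 had 15.2, 14.4, 15.9 and 15.7 CPM in *nhr-1* RNAi libraries, against 12.8, 18.2, 10.4 and 13.1 CPM in control libraries. The arms overlapped at both times, and the difference at 11 feedings lies in the high values of control libraries s2 and s3. At 6 feedings BK007038 had 17.2, 21.0, 17.7 and 25.3 CPM in *nhr-1* RNAi libraries, against 14.8, 27.9 and 12.6 CPM in control libraries. At 4 feedings it had 11.9, 19.8, 55.5 and 18.4 CPM in *nhr-1* RNAi libraries, against 22.6, 36.9, 19.2 and 28.9 CPM in control libraries. Here too the arms overlapped, with *nhr-1* RNAi library s2 far above the rest.

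The log2 fold change of BK007038 at 11 feedings was -1.41 (edgeR adjusted p = 0.0190), and 0.03 without the 3 libraries with a dominating contig. It was -0.85 without control library s2 (adjusted p = 0.166), -1.18 without control library s3 (adjusted p = 0.0801) and -1.37 without *nhr-1* RNAi library 1 (adjusted p = 0.0513). With a block for replicate names its edgeR adjusted p at 11 feedings was 0.0648. Its average over the feedings was -0.29 (SE 0.223, edgeR adjusted p = 0.317).

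BK007023 had 7.76, 11.9, 37.5 and 11.4 CPM in *nhr-1* RNAi libraries after 4 feedings, against 10.9, 25.1, 11.8 and 24.6 CPM in control libraries. After 6 feedings BK007023 had 8.34, 12.2, 10.7 and 15.3 CPM in *nhr-1* RNAi libraries, against 7.39, 18.0 and 8.37 CPM in control libraries. By 8 feedings it had 8.61, 7.50, 8.22 and 8.24 CPM in *nhr-1* RNAi libraries, against 6.94, 10.1, 6.41 and 8.75 CPM in control libraries. The arms overlapped at each of these times. After 11 feedings BK007023 had 8.27, 9.04, 10.2 and 8.51 CPM in *nhr-1* RNAi libraries, against 7.50, 11.1, 54.3 and 71.9 CPM in control libraries. The lowest control library lay below all *nhr-1* RNAi libraries there, while s2 and s3 lay far above them. In log2 fold change it was at -1.99 at 11 feedings (edgeR adjusted p = 0.00542), -0.13 without the 3 libraries with a dominating contig (adjusted p = 0.957), and -0.50 on average (edgeR adjusted p = 0.134). Without control library s3 alone the value at 11 feedings was -1.38 (adjusted p = 0.0585).

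BK007027 had 5.54, 9.69, 24.9 and 7.03 CPM in *nhr-1* RNAi libraries after 4 feedings, against 8.67, 22.2, 9.56 and 16.2 CPM in control libraries. After 6 feedings BK007027 had 7.52, 7.04, 9.85 and 15.1 CPM in *nhr-1* RNAi libraries, against 7.34, 10.6 and 6.41 CPM in control libraries. After 8 feedings it had 7.76, 6.61, 8.39 and 8.05 CPM in *nhr-1* RNAi libraries, against 6.07, 7.41, 5.66 and 7.23 CPM in control libraries. Up to 8 feedings the arms overlapped. After 11 feedings BK007027 had 6.92, 11.0, 8.97 and 8.76 CPM in *nhr-1* RNAi libraries, against 7.10, 9.44, 44.9 and 53.0 CPM in control libraries, with the lower control pair inside the *nhr-1* RNAi range. In log2 fold change it was at -1.66 at 11 feedings (edgeR adjusted p = 0.0120), 0.03 without the 3 libraries with a dominating contig (adjusted p = 0.994), and -0.36 on average (edgeR adjusted p = 0.249). Without control library s2 or s3 alone the values at 11 feedings were -1.32 (adjusted p = 0.0606) and -1.15 (adjusted p = 0.106).

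Among entries above the median control level, BK007042 and BK007025 had the largest unadjusted p on the average effect. BK007042 had 10.3, 17.9, 38.7 and 18.0 CPM in *nhr-1* RNAi libraries after 4 feedings, against 16.5, 31.8, 15.8 and 32.002 CPM in control libraries. After 6 feedings BK007042 had 12.2, 18.6, 15.7 and 28.4 CPM in *nhr-1* RNAi libraries, against 11.1, 23.0 and 10.3 CPM in control libraries. The arms overlapped at both times. After 8 feedings it had 11.98, 13.3, 14.2 and 17.2 CPM in *nhr-1* RNAi libraries, against 8.86, 15.3, 8.66 and 11.0 CPM in control libraries. After 11 feedings it had 12.9, 16.1, 15.5 and 13.6 CPM in *nhr-1* RNAi libraries, against 11.4, 15.8, 35.8 and 33.1 CPM in control libraries. The arms overlapped at these times as well. Its average log2 fold change came to -0.05 (SE 0.192, edgeR adjusted p = 0.857).

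BK007025 had 4.90, 7.37, 24.0 and 8.69 CPM in *nhr-1* RNAi libraries after 4 feedings, against 6.31, 14.99, 6.58 and 15.04 CPM in control libraries. After 6 feedings BK007025 had 4.99, 8.15, 4.89 and 11.9 CPM in *nhr-1* RNAi libraries, against 4.16, 7.89 and 4.74 CPM in control libraries. The arms overlapped at 4 and at 6 feedings. After 8 feedings it had 5.36, 5.84, 5.90 and 6.29 CPM in *nhr-1* RNAi libraries, against 3.72, 5.53, 3.41 and 4.69 CPM in control libraries. By 11 feedings it had 4.91, 7.32, 6.86 and 7.35 CPM in *nhr-1* RNAi libraries, against 2.97, 4.75, 33.3 and 26.6 CPM in control libraries. At 8 feedings a single control library reached into the *nhr-1* RNAi range, and at 11 feedings 2 controls lay below it and s2 and s3 far above it. Its average log2 fold change came to -0.11 (SE 0.271, edgeR adjusted p = 0.768).

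The 27 entries not called on the average effect lay between -0.69 and 0.30 in log2 fold change, 25 of them below 0, and their smallest edgeR adjusted p was 0.0657, for BK007040. With a block for replicate names BK007040 was at -0.80 (edgeR adjusted p = 0.0360). Counting libraries rather than tests, the arms did not overlap for BK007034 (lower) and BK007015 (higher) at 6 feedings, beside 12.9% of all sequences lower and 6.13% higher. At 8 feedings they did not overlap for BK007012, BK007030, BK007031 and BK007034 (lower) and for BK007037 and BK007043 (higher), beside 15.2% lower and 13.5% higher. At 11 feedings this held for BK007007, BK007012, BK007017, BK007030 and BK007034 (lower) and BK007043 (higher), beside 12.5% lower and 10.9% higher. At 4 feedings no entry was without overlap, beside 1.28% lower and 0.496% higher. Among 33 entries, these counts are near or below the shares in the whole table.

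BK007043, of 2434 bases, was named after its values were seen because it ran against the others. Its level after 11 feedings was 41.2, 47.2, 44.5 and 42.7 CPM in *nhr-1* RNAi libraries, against 35.7, 34.97, 23.3 and 7.73 CPM in control libraries. It was lowest in the same control libraries, s2 and s3, in which most other entries were highest. Its log2 fold change at 11 feedings came to 0.78 (SE 0.334, edgeR adjusted p = 0.0786). With a block for replicate names that value was 1.21 (edgeR adjusted p = 0.0445), and without the 3 libraries with a dominating contig it was 0.22 (edgeR adjusted p = 0.846). After 8 feedings BK007043 averaged 40.4 ± 2.09 CPM in *nhr-1* RNAi and 33.4 ± 5.63 CPM in control libraries (SD, n = 4 each), a log2 fold change of 0.27 (edgeR adjusted p = 0.743).

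The summed level of the 35 entries was 296 ± 179 CPM in *nhr-1* RNAi and 315 ± 89.9 CPM in control libraries after 4 feedings (SD, n = 4 each). After 6 feedings it was 230 ± 51.1 CPM in *nhr-1* RNAi (n = 4) and 209 ± 50.4 CPM in control libraries (n = 3). By 8 feedings it was 188 ± 9.70 CPM in *nhr-1* RNAi and 174 ± 27.1 CPM in control libraries, and after 11 feedings 200 ± 22.01 CPM in *nhr-1* RNAi and 467 ± 324 CPM in control libraries (SD, n = 4 each). The arms overlapped at every number of feedings. At 11 feedings the sums of the control libraries were 166, 209, 767 and 728 CPM, the last 2 being s2 and s3. Without those, the control mean was 187 ± 30.3 CPM (SD, n = 2), below the *nhr-1* RNAi mean of 199.5 CPM. At 4 feedings without *nhr-1* RNAi library s2 the *nhr-1* RNAi mean was 208 ± 39.8 CPM (SD, n = 3), with its highest library at 233 CPM and the lowest control library at 237 CPM. Exact two-sided permutation tests over libraries gave p = 0.8286, 0.571, 0.400 and 0.343 at 4, 6, 8 and 11 feedings, and the adjusted values over these 4 tests were 0.8286, 0.762, 0.762 and 0.762. No p from so few libraries can be smaller than 0.0286. As CPM of total counts, with no TMM factor, the sums at 11 feedings averaged 213 ± 12.8 in *nhr-1* RNAi and 243 ± 30.3 in control libraries (exact permutation p = 0.143, n = 4 each). The TMM factors of control libraries s2 and s3 at 11 feedings were the lowest of all libraries, and the lower of them was 0.353.

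**Figure D5:**
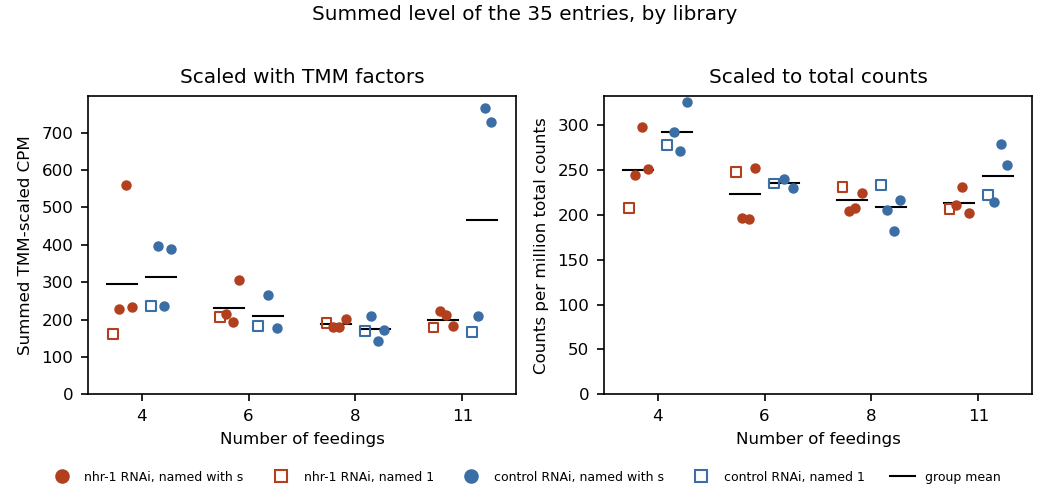
Summed level of the 35 BK0070 entries in each library, as TMM-scaled CPM (left) and as CPM of total counts (right), by number of feedings, with *nhr-1* RNAi left of control RNAi and a line at each group mean. At 11 feedings *nhr-1* RNAi libraries are at 200 ± 22.01 TMM-scaled CPM and 213 ± 12.8 CPM of total counts, and control libraries at 467 ± 324 TMM-scaled CPM and 243 ± 30.3 CPM of total counts (SD, n = 4 each).

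Over the feedings in control animals, edgeR called 0 of 33 entries, beside 0% of all sequences. At an unadjusted p under 0.05 there were 26 entries, beside 18.2% of all sequences, and the smallest adjusted p was 0.0735. DESeq2 called 19 entries, beside 8.57% of all sequences, and limma voom called 17, beside 17.4%. With edgeR the count was also 0 on total counts alone, without the 3 libraries with a dominating contig, and with library sizes from the entries. Each of those fits called 0% of all sequences. The edgeR count was 25 without control library 1 at 11 feedings and 19 without control library s1 at 11 feedings, and 8 without *nhr-1* RNAi library s2 at 4 feedings. The fits with 25 and 19 calls keep control libraries s2 and s3 at 11 feedings, which have a dominating contig. For these fits with a library left out the share of all sequences is not given here.

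Across the 31 libraries the entries moved largely together. Pearson's r of log2 CPM had a median of 0.859 over the 528 pairs of tested entries, was over 0.9 in 151 pairs and below 0 in 60 pairs. The pairs share library sizes and the 3 libraries in which nearly all entries stood high. Over the 28 libraries without those, the median r was 0.669, with 16 pairs over 0.9 and 20 below 0. The entries least like the rest were BK007043, with a median r of -0.61 with the others, BK007015 with -0.15 and BK007034 with 0.46, and over 28 libraries these values were -0.04, 0.34 and 0.27.

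Many BK0070 entries had a SmedSXL contig with closely similar counts over the libraries, although no sequences were compared. For each tested entry the contig with the most similar log2 CPM over the 31 libraries was found, and r was over 0.95 for 32 of 33 entries, with the lowest value, 0.868, for BK007015. A high r alone does not mark a single contig. The second most similar contig had r = 0.988 beside 0.989 for BK007023, and 0.984 beside 1.00 for BK007034. Over the 28 libraries without a dominating contig, r with the same contigs was over 0.95 for 30 of 33 entries. For 21 of 33 entries r was over 0.99 and the total counts of entry and contig were within 5% of each other. The closest contig to BK007034 was SmedSXL_038294, of 649 bases, with r = 1.00 and 2849 total counts against 2847 for the entry. BK007031 was closest to SmedSXL_019399 (r = 0.999), BK007017 to SmedSXL_002952 (r = 0.999) and BK007012 to SmedSXL_019405 (r = 0.998). The total counts were 1339 for the contig and 1309 for BK007031, 1169 for the contig and 1120 for BK007017, and 1632 for the contig and 1528 for BK007012. Such a pair of reference sequences is not an independent pair of measurements, and how reads that match both were counted is not given in the sources used here.

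The entries at the edge of the count rule were near the limit of what these libraries can measure. BK007020 and BK007021 were kept with 123 and 120 total counts and at most 13 and 11 in a library, but did not pass the filter for testing. BK007019 and BK007011 had 155 and 96 total counts, reached 10 counts in 2 libraries and 1 library, and were left out by the rule. All 4 were below 15 counts in every library.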

How the data were processed

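The authors deposited 1 table of raw counts per reference sequence, in which poly(A) RNA of whole animals is counted over 177783 named sequences in 32 libraries. Bowtie2 is named in the submitters' processing notes without a version, while no source used here gives the counting method or the handling of reads that match several sequences. Groups follow the sample titles. For the control at 11 feedings the descriptions give other replicate names than the titles, and the titles were used. The single control library at 7 feedings entered no comparison, except in the alternative that counted it with the controls at 6 feedings. The entries are the BK0070 sequences with at least 10 counts in 3 or more of 31 libraries.

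Counts were analysed in R 4.3.3 with edgeR 4.0.16: filterByExpr on the whole table (45762 sequences), TMM factors, 1 mean for each of 8 groups, the quasi-likelihood test, and Benjamini-Hochberg adjustment over all tested sequences. CPM uses TMM-scaled library sizes, and log2 CPM adds a prior count of 2. Summed levels were compared by exact permutation tests. The edgeR steps, but not the permutation tests, were run on simulated counts. Apart from the changes put in, the simulated libraries shared the same proportions, so no contig dominated single libraries there. Alternatives were DESeq2 1.42.0, limma 3.58.1 (voom with a weight for each library, called voom here), other scalings, filters and sets of libraries, and leaving out each library. Of these, library sizes from the counts on the entries, total counts without the 3 libraries with a dominating contig, and summed levels without them, were chosen after seeing the data.

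The entries, lists and tests were chosen with earlier results of these data known. Values in every library are given for the 6 most negative average effects among called entries (no called entry had a positive one), the 3 highest mean control levels per kilobase, and the 2 largest p among entries above the median control level. Library names were taken to pair the arms at 6 and 11 feedings, where the deviations of same-named libraries from their group means had r of 0.225 to 0.576 and 0.173 to 0.427. The main fit and the permutation tests did not use this pairing, and the block for replicate names was run as an alternative only. The labels do not say what a name stands for. No sequence is shown, because none of the files used here holds one.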

Additional observations from a re-analysis of the deposited data

Results flagged for a closer look

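In the groups of 4 libraries, 77 sets of values of the 11 entries described by the rule on named entries, and 7 of the summed level, were searched for a library far from the other 3 by Dixon's criterion. Of these 84 sets 7 (8.33%) had one. Chance gives about 1 in 20 for independent sets, but these sets share libraries in which the entries moved together, so the rates cannot be compared. In *nhr-1* RNAi library s2 at 4 feedings, a library with a dominating contig, BK007012 stood at 9.41 CPM, against 1.39 to 1.97 CPM in the other 3 libraries. In the same library BK007007 stood at 13.1 CPM, while the others ran from 1.66 to 3.38 CPM. BK007017 stood at 6.72 CPM there, against 1.57 to 1.97 CPM, and BK007023 at 37.5 CPM, against 7.76 to 11.9 CPM. The remaining cases lay in other libraries. BK007034 was at 5.37 CPM in *nhr-1* RNAi library s3 at 6 feedings, while the others ran from 1.91 to 2.27 CPM. BK007012 was at 2.05 CPM in *nhr-1* RNAi library 1 at 8 feedings, against 1.47 to 1.55 CPM. BK007030 was at 4.73 CPM in control library s3 at 4 feedings, against 2.02 to 2.46 CPM. The causes of these values were not tested.

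The effect of *nhr-1* RNAi on BK007034 differed between feedings by edgeR's F test of the difference itself (adjusted p = 0.00857). Its log2 fold change was -0.35 at 4 feedings, -1.83 at 6, -2.44 at 8 and -2.55 at 11.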

How the results depend on the processing

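BK007034 was called at 6, 8 and 11 feedings in all 46 alternatives tried for each of these times, and the 6 entries called on the average effect were called in all 31 fits with a library left out and in all 14 other alternatives. The number called at 4 feedings was 1 with limma voom, 1 without the 3 libraries with a dominating contig and 1 without those libraries on total counts alone, in place of 0. At 6 feedings it was 2 with voom, 2 on total counts alone, 2 without the 3 libraries, 3 without them on total counts alone and 2 with library sizes from the counts on the entries. At 8 feedings it was 8 with voom, 3 on total counts alone, 5 with only the groups compared, 4 without the 3 libraries, 4 without them on total counts alone and 4 with sizes from the entries. At 11 feedings it was 5 with voom, 7 on total counts alone, 4 with only the groups compared, 2 without the 3 libraries, 4 without them on total counts alone and 6 with sizes from the entries, and 8 to 32 with a library left out. For the difference between feedings it was 4 with DESeq2 and 4 without a filter, and 1 to 11 with a library left out (2 without *nhr-1* RNAi library 1 at 4 feedings, 11 and 4 without control libraries 1 and s1 at 11). Over feedings in controls it was 19 with DESeq2 (8.57% of all sequences called), 17 with voom (17.4%) and 2 with RLE factors (1.24%). It was 13 without a filter (1.65%), 12 with libraries named s only (7.08%), and 0 to 25 with a library left out. Over feedings in *nhr-1* RNAi it was 3 with voom. On the average effect it was 6 to 14 with a library left out, the 14 without *nhr-1* RNAi library s2 at 4 feedings. For the other counts in this paragraph the share of all sequences called in the same fit is not given. Such counts do not tell a change in the entries from a change in the whole table.

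The summed level changed sign on total counts alone at 6 feedings (-12.1 CPM of total counts, *nhr-1* RNAi minus control), and without the 3 most abundant sequences at 6 (-5.56 CPM) and 8 feedings (-3.29 CPM). Without the 3 libraries with a dominating contig, an alternative chosen after seeing the data, it was 12.2 CPM at 11 feedings and -106.7 CPM at 4. With a library left out it was -106.7 to 25.8 CPM at 4, -3.41 to 50.9 at 6, 3.98 to 25.9 at 8 and -368.2 to -167.9 at 11 feedings. Signs of log2 fold changes turned for BK007038 at 11 feedings (0.0300 without the 3 libraries) and on average (0.0356, voom), and for BK007027 at 11 feedings (0.0255 without the 3 libraries). On average, BK007042 turned to 0.16 with voom, 0.0836 on total counts alone, 0.0244 without the 3 libraries on total counts alone and 0.19 with sizes from the entries, with -0.21 to 0.0528 over single libraries left out. BK007025 turned to 0.27 with voom, 0.0929 on total counts alone, 0.17 without the 3 libraries, 0.23 without them on total counts alone and 0.21 with sizes from the entries. Total counts alone put the median log2 fold change of all sequences at 0.57 at 11 feedings, where it was 0.14 with TMM, and that of the entries at -0.51. The causes were not tested.

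With the replicate block, which treats same-named libraries as pairs, 14 entries were called at 11 feedings, 12 of them among the 20 called without it, and 7 on the average effect. No share of all sequences is given for that fit. The block was fitted at 4, 6, 8 and 11 feedings alike. By their r values, library names were not taken to pair the arms at 4 and 8 feedings (r of -0.62 to 0.416 and 0.006 to 0.257). These ranges overlapped those at 6 and 11 feedings, and no r was negative at 8 feedings. The r values therefore do not set paired and unpaired feedings clearly apart. No paired analysis was possible for changes over feedings, because the names pair libraries within a number of feedings only. Depth limits the low entries: 28 of the 37 had at least 50 counts in 3 or more libraries.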

Other observations

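The single control library labelled with 7 feedings had 14697247 total counts and a TMM factor of 0.939. It belongs to no comparison, except in the alternative that counted it with the controls at 6 feedings. In it 18 of the 35 entries lay above the range of the 7 control libraries at 6 and 8 feedings, 17 lay within it and none below. Of all 45762 tested sequences 28.4% lay above that range and 24.7% below it, and of the 33 tested entries 18 lay above and none below. BK007034 had 254 counts there, or 18.5 CPM, where the control libraries at 6 and 8 feedings, scaled together with it, ran from 6.45 to 12.6 CPM.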
